A study of Arabidopsis thaliana with 96 samples.

Results

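The anthocyanin regulators of the MYB-bHLH-WD40 complex were followed across light and nitrate supply in leaves of wild-type Arabidopsis thaliana, accession Col-0. The members are 10 loci of the deposited count table, out of 32833, chosen by their locus names, and all 10 had enough counts to be tested. They are the 4 R2R3 MYB activators PAP1 (MYB75, AT1G56650), MYB90 (AT1G66390), MYB113 (AT1G66370) and MYB114 (AT1G66380), and the 3 bHLH partners TT8 (AT4G09820), GL3 (AT5G41315) and EGL3 (AT1G63650). The others are the WD40 protein gene TTG1 (AT5G24520) and the 2 single-repeat MYB repressors MYBL2 (AT1G71030) and CPC (AT2G46410). Light was set to 100, 250 or 500 µmol of photons per m2 and second, called low, mid and high here, and the nutrient solution held 2, 5, 10 or 20 mM nitrate. All groups share the wild-type genotype, a start on medium with sucrose, pots of clay, short days and a harvest at the same age. From every combination leaf discs of 8 individual plants were sequenced, 96 libraries in 12 groups. The design allows the effects of light, of nitrate and of their combination to be read from the same plants.

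In this complex an R2R3 MYB protein, a bHLH protein and the WD40 protein TTG1 assemble on the promoters of the late anthocyanin genes and switch them on. The same bHLH and WD40 proteins, with other MYB partners, direct trichome and root hair patterning and the pigmentation of the seed coat. Small MYB proteins with a single repeat, such as MYBL2 and CPC, bind the bHLH protein and hold the pathway down. In leaves the pathway is known for its induction by strong light, sugar and shortage of nitrogen.

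MYB113, MYB114 and MYB90 lie side by side on the plus strand of chromosome 1, at chr1:24753589-24754761, chr1:24757298-24758953 and chr1:24763941-24765541 (RefSeq annotation of assembly TAIR10.1). PAP1 lies apart at chr1:21233555-21235292 on the minus strand. Their coding sequences are close copies of one another. The closest pair, MYB90 and MYB114, shares 91.2% of 420 aligned bases and an identical run of 77 exon bases, and the most distant pair, PAP1 and MYB113, shares 79.3%. How the authors treated reads that match more than 1 gene is not given in the sources used here, so MYB90 and MYB114 are uncertain one against the other. MYB114 of the reference ends early, with 139 codons before its stop against 246 to 249 in the other 3 genes. The last 60 coding bases of MYB114 and the aligned bases of the other 3 are shown because they hold this difference, and the capitals mark the codon that is the stop in MYB114. The change is A421T counted from the first base of the start codon of MYB113 or MYB90, and A418T counted in PAP1.
MYB114 coding sequence: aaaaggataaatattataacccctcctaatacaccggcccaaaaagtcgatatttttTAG
MYB113 coding sequence: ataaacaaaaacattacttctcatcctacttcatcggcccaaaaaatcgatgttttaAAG
MYB90 coding sequence: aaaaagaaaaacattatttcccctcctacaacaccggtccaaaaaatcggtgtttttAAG
PAP1 coding sequence: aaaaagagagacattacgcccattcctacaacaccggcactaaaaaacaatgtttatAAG

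Among the 10 promoters, taken as the 250 bases before each annotated gene start in TAIR10.1, the G-box CACGTG occurred in 2, those of MYB90 and MYB114. It occurred in 6.49% of the 27443 windows of that length over all genes, both strands searched. The AC elements, short motifs known to be bound by plant MYB proteins, were searched in 3 forms, of which ACCTACC occurred in none of the 10. The form ACCAACC occurred in the TT8 window and in 2.69% of all windows, and the form ACCTAAC occurred in the MYB114 window and in 2.46% of all windows. The 3 windows are shown because these genes had the largest changes with light among the members, and the capitals mark the G-box and AC elements on either strand. They span chr1:24763691-24763940 (MYB90), chr1:24757048-24757297 (MYB114) and chr4:6181631-6181880 (TT8), all on the plus strand. A match in these letters is a description of the sequence and not a measured binding site.
MYB90 promoter: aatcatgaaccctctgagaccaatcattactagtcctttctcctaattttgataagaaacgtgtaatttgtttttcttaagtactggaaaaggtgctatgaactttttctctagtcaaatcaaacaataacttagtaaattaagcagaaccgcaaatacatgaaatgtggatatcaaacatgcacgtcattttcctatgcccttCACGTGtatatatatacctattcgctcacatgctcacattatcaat
MYB114 promoter: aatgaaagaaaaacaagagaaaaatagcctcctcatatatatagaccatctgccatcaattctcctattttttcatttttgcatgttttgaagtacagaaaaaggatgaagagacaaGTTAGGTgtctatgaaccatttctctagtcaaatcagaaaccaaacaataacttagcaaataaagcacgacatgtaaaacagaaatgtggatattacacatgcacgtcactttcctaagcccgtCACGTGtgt
TT8 promoter: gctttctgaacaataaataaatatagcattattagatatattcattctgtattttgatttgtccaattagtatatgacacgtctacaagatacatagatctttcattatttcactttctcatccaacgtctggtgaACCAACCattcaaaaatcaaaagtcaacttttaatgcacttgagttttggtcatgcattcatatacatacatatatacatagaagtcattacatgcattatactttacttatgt

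The 96 libraries held between 9.46 and 18.1 times 1000000 counts (median 12.5). By their codes in the labels the libraries fall into 4 consecutive blocks of 24, named code sets 1 to 4 below, and each block has 2 libraries of every group. The sources used here do not say that a code set is a batch, but levels differed between the sets for 13897 of 19498 tested genes, and for 7 of the 10 members, so values within the sets stand beside the pooled ones below. In high light the leaf also held less transcript of the 5 epidermis markers (ATML1, PDF2, FDH, PDF1 and CER1), all 5 of which were called lower. Their summed level had a median of 323 CPM in high light (counts per 1000000 counts of the library, range 85.6 to 550) and 579 CPM in low light (range 179 to 827). The 3 guard cell markers gave no call, and the 3 seed coat markers TT2, BAN and TT12 were near 0 in every group, with a highest summed level of 0.723 CPM. Of the 3 vascular markers 1 was called higher and 1 lower, and the 3 photosynthesis markers were all called lower. At 20 against 2 mM nitrate 3 of 5 epidermis markers and all 3 photosynthesis markers were called higher. Counts from chloroplast genes took a median share of 2.12% in high and 3.41% in low light. The part of these shifts in the results below was not tested, and in a leaf disc fewer cells of a type and less RNA per cell cannot be told apart.

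At 5 mM nitrate in high light the regulators stood in a wide range of levels per length of transcript (RPKM, the CPM of a gene divided by its exon length in kilobases). PAP1 had the highest mean, 160 ± 152 RPKM, followed by MYBL2 at 120 ± 87.6, MYB90 at 59.4 ± 91.8, TT8 at 35.5 ± 25.3 and TTG1 at 23.9 ± 4.69 (SD, n = 8 plants). MYB113 had 18 ± 29, MYB114 7.72 ± 9.31, CPC 5.04 ± 6.25, GL3 1.94 ± 0.970 and EGL3 0.436 ± 0.211 RPKM. At the same dose in low light the order differed. MYBL2 had 138 ± 49.6 RPKM there, PAP1 27.4 ± 25.6 and TTG1 21.5 ± 3.55, while TT8 had 0.0855 ± 0.0949, MYB114 0.0210 ± 0.0421 and MYB90 0.0163 ± 0.0460. Thus, at this dose, the activator PAP1, the repressor MYBL2 and the scaffold TTG1 were present at both light levels, PAP1 with a lower mean in low light. TT8, MYB90 and MYB114 were close to 0 in low light.

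**Figure D1:**
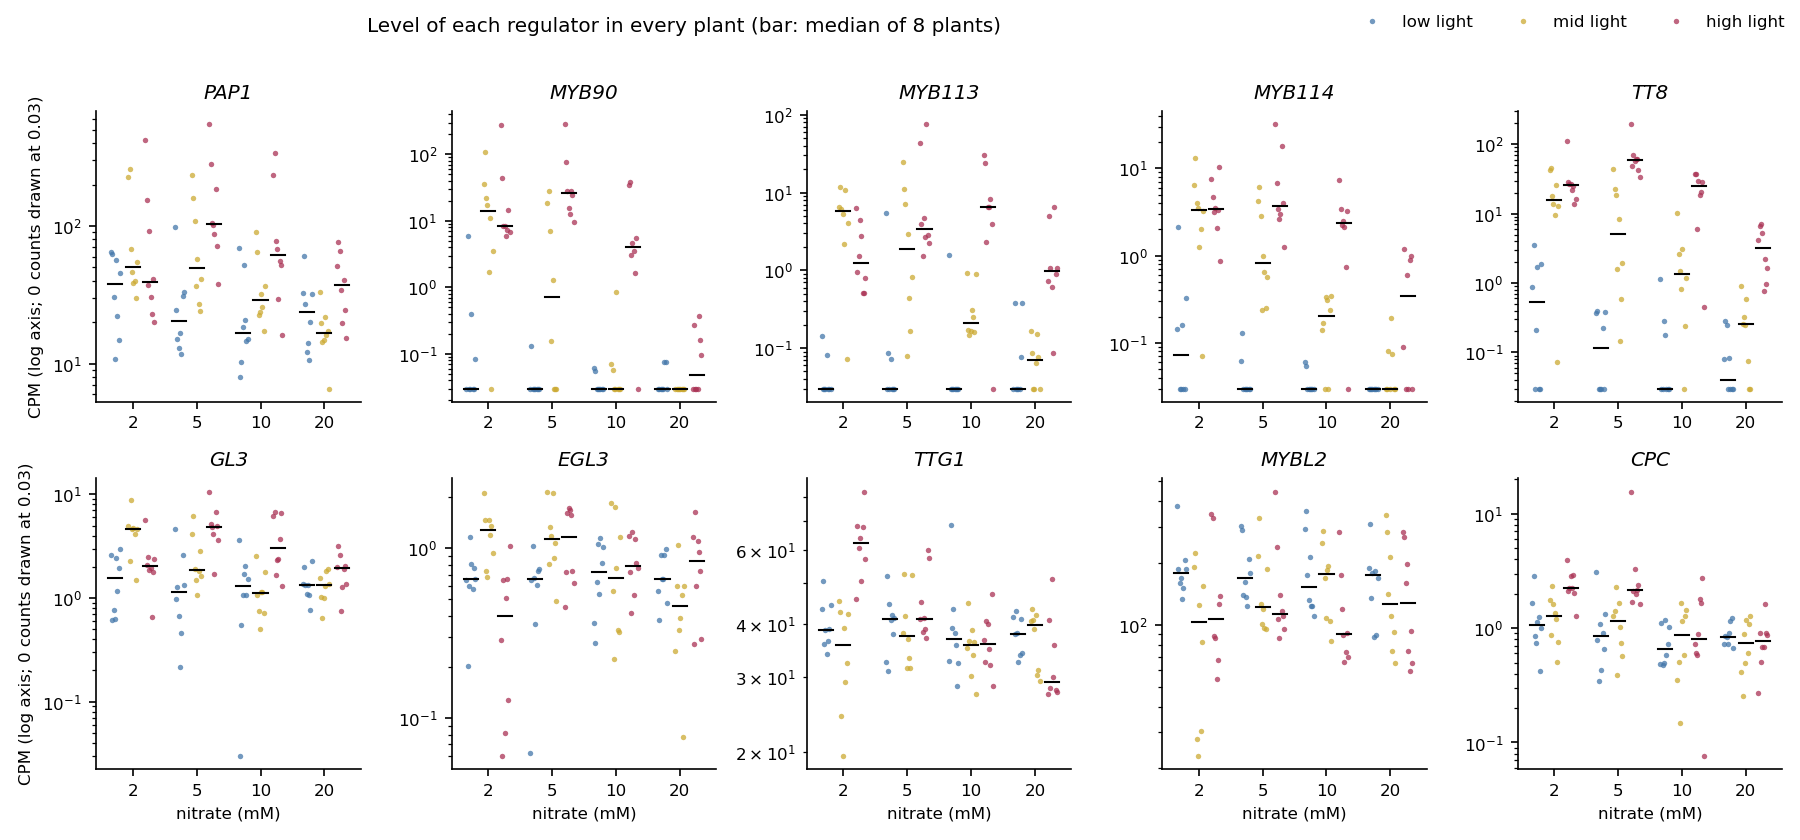
Level of each of the 10 regulators in every plant, as counts per 1000000 (CPM, log axis, each panel with its own scale) against nitrate dose in mM, with low, mid and high light side by side. Each point is 1 plant, bars are medians of 8 plants, and plants with 0 counts are drawn at 0.03 CPM. In low light at 5 mM 7 plants have 0 counts of MYB90, and in high light at 5 mM MYB90 runs from 9.57 to 281 CPM, while group means of TTG1 lie between 33.7 and 62.1 CPM.

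High light was first compared with low light, averaged over the 4 doses (n = 32 plants per level). Of the 10 members 7 rose, 1 fell and 2 gave no call, with a median log2 change of 1.09 against 0.04 over all tested genes. Of all tested genes 62.5% were called in this comparison, so a call alone is common here, and the sizes set the members apart from one another. Without code set 1 the counts were the same. Within code sets 1 to 4 there were 5, 5, 7 and 4 members called higher and 0, 1, 1 and 1 called lower. Over all genes 4372 of 19619, 10698 of 19542, 7960 of 19354 and 5901 of 19264 tested were called in these sets. A call is an adjusted p under 0.05 in the quasi-likelihood F test of edgeR, adjusted by Benjamini-Hochberg over the 19498 tested genes. Changes are log2 values, each followed by its standard error (SE). They rest on TMM scaling, while CPM values are per library total. With library totals in the fit, tried after the data were seen, the median of all tested genes was 0.27 in high against low light and -0.37 at 20 against 2 mM, so changes near these sizes depend on the scaling.

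The 4 MYB activators all rose, by very different sizes. PAP1, the activator known for purple plants when overexpressed, had 38, 103 and 548 CPM as lowest, median and highest of 8 plants in high light at 5 mM, against 11.8, 20.6 and 97.8 CPM in low light. All 8 high-light plants lay above the median of the low-light plants, and 5 lay above every one of them, so the groups overlapped. Averaged over the doses PAP1 rose by 1.41 ± 0.28 (adjusted p = 1.15e-05). MYB90, its closest full-length relative, had 9.57, 26.5 and 281 CPM in high light at 5 mM, and in low light 7 plants had 0 counts and 1 had 0.130 CPM. At 5 mM the groups did not overlap, while at 2, 10 and 20 mM they did. Averaged over the doses MYB90 rose by 6.75 ± 1.09 (adjusted p = 1.91e-07). In low light the groups at 5, 10 and 20 mM held 2 counts each, and 59 of the 65 counts at 2 mM came from 1 plant. The size of this change thus rests on nearly empty groups.

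MYB113 had 1.54, 3.38 and 75.2 CPM in high light at 5 mM and 0, 0 and 5.53 CPM in low light. Only 2 high-light plants lay above the highest low-light plant, since low-light replicate 1 had 5.53 CPM and the other 7 had at most 0.0861 CPM. At 2 mM the MYB113 groups did not overlap, with 0.509, 1.24 and 6.29 CPM in high light and 0, 0 and 0.144 CPM in low light. Over the doses MYB113 rose by 4.75 ± 0.58 (adjusted p = 4.98e-11). MYB114, the copy with the early stop, had 1.25, 3.70 and 31.7 CPM in high light at 5 mM and 0, 0 and 0.130 CPM in low light, without overlap. It rose by 5.82 ± 0.52 over the doses (adjusted p = 5.7e-16), or by 5.67 when groups under 3 counts are set to a floor of 3 counts per group, because low light at 20 mM held no MYB114 count.

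The bHLH partners differed among themselves. TT8, the bHLH gene of the anthocyanin and seed coat pathways, had 34.2, 59.5 and 194 CPM in high light at 5 mM and 0, 0.114 and 0.391 CPM in low light. Every high-light plant lay above every low-light plant at 2, 5 and 20 mM, and at 10 mM 7 of 8 did. TT8 rose by 6.17 ± 0.47 (adjusted p = 1.17e-19). GL3, known for its part in trichome formation, had 1.69, 4.89 and 10.6 CPM in high light at 5 mM and 0.216, 1.13 and 4.66 CPM in low light, with overlap, and rose by 0.77 ± 0.22 (adjusted p = 0.00189). EGL3, its near relative, stayed at group means of 0.426 to 1.26 CPM and gave no call (-0.03 ± 0.19, adjusted p = 0.892), with 0.18 on library totals (adjusted p = 0.42).

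TTG1, the shared WD40 protein, averaged 44.3 ± 14 CPM in high light and 39.6 ± 7.53 CPM in low light (SD, n = 32 each), and its log2 change was -0.11 ± 0.06 (adjusted p = 0.117). With the RLE scaling factors in place of TMM the same change was -0.13 with adjusted p = 0.048. On library totals it was 0.12 (adjusted p = 0.118), so the sign of this change depends on the scaling. At 5 mM, too, the mean was 45 CPM in high light and 40.4 CPM in low light while the TMM-scaled change was -0.22 ± 0.13 (adjusted p = 0.155). The calls at single doses differed in sign. At 2 mM TTG1 rose by 0.36 ± 0.13 (adjusted p = 0.0171), with 46, 62.2 and 82.3 CPM in high light and 34, 38.9 and 50.7 CPM in low light. At 10 mM it fell by 0.40 on the log2 scale (SE 0.13, adjusted p = 0.0155), with 28.6, 36 and 47.1 CPM in high and 28.6, 36.9 and 68.6 CPM in low light, and without code set 1 this call was lost (-0.26, adjusted p = 0.151), as it was on library totals (-0.12, adjusted p = 0.514).

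The 2 repressors moved in opposite directions. MYBL2, which in Arabidopsis binds TT8 and restrains anthocyanin genes, averaged 148 ± 99.5 CPM in high light and 187 ± 74.5 CPM in low light (SD, n = 32 each), and fell by 0.59 on the log2 scale (SE 0.19, adjusted p = 0.0065). On library totals its change was -0.34, with no call (adjusted p = 0.115). At 5 mM it had 86.5, 114 and 446 CPM in high light and 123, 170 and 302 CPM in low light, with broad overlap. With code set as a term MYBL2 was also called lower at 2 mM (-0.86, adjusted p = 0.00435), 5 mM (-0.70, adjusted p = 0.0188) and 10 mM (-1.03, adjusted p = 0.00136), doses at which it gave no call without that term. CPC, better known for root hair patterning, had 1.63, 2.14 and 15.6 CPM in high light at 5 mM and 0.344, 0.847 and 3.11 CPM in low light. It rose by 0.57 ± 0.21 over the doses (adjusted p = 0.013). Without high-light replicate 1 at 5 mM, the plant at 15.6 CPM, the change was 0.37 with adjusted p = 0.0754, and limma-voom gave 0.44 with adjusted p = 0.0564.

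The light comparison was then made at each dose. At 2 mM 5 members were called in high against low light (42.9% of all tested genes), at 5 mM 7 (44%), at 10 mM 6 (23.6%) and at 20 mM 3 (3.78%). All calls were higher in high light except that of TTG1 at 10 mM. The 3 calls at 20 mM were MYB113, MYB114 and TT8. There TT8 had 0.766, 3.17 and 7.06 CPM in high light and 0, 0.0400 and 0.282 CPM in low light, a rise of 5.33 ± 1.05 (adjusted p = 0.000909). MYB114 summed to 46 counts over the 8 high-light plants and 0 over the low-light plants, at least 15.5-fold higher with a floor of 3 counts per group. MYB90 at 20 mM had 11 counts in high and 2 in low light and gave no call (adjusted p = 0.677). With limma-voom none of the 3 calls at 20 mM was kept.

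**Figure D2:**
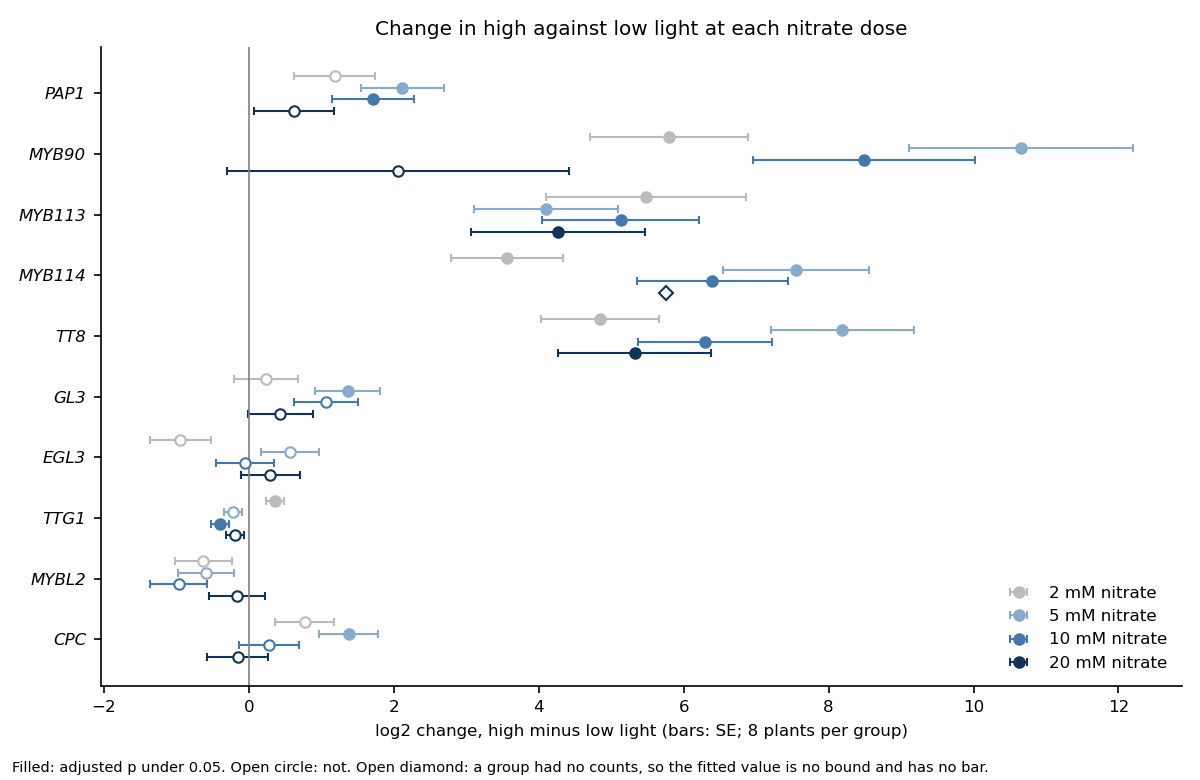
Change of each regulator in high against low light at each nitrate dose, on the log2 scale with SE (8 plants per group). Filled circles passed an adjusted p of 0.05, open circles did not, and an open diamond marks a comparison with an empty group. MYB90, MYB114 and TT8 are highest at 5 mM, and the points of TTG1 lie on both sides of 0.

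Mid light, compared with low light, showed part of the same pattern. Here 3 members rose (MYB113 by 2.44 ± 0.73, MYB114 by 3.65 ± 0.67 and TT8 by 3.78 ± 0.50) and TTG1 fell by 0.20 on the log2 scale (SE 0.06), while 19.8% of all tested genes were called. On library totals TTG1 gave no call (-0.11, adjusted p = 0.239). The fit gave no usable standard error for MYB90 in this contrast, in which 4 groups held under 3 counts, and the cause was not tested. With the floor of 3 counts per group its change was 3.76, and DESeq2 gave 3.61 (adjusted p = 6.7e-05). Its mean was 0.215 ± 1.06, 8.02 ± 20.7 and 29.3 ± 67.4 CPM in low, mid and high light (SD, n = 32 each). High against mid light gave 6 higher members and none lower, with 38.7% of all tested genes called, and PAP1 (0.86 ± 0.28), GL3 (0.43 ± 0.22, no call) and CPC (0.61 ± 0.21) changed less than TT8 (2.39 ± 0.37) by these estimates. The PAP1 call was lost with limma-voom (0.61, adjusted p = 0.0612) and that of CPC without high-light replicate 1 at 5 mM (0.41, adjusted p = 0.0739), as it was when code set 1 was left out (0.32, adjusted p = 0.175).

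The activators PAP1, MYB90 and MYB114, the bHLH gene TT8 and the repressor CPC were lower at the highest nitrate dose than at the lowest. At 20 against 2 mM, averaged over the 3 light levels (n = 24 plants per dose), 5 members fell, none rose and 5 gave no call, with a median log2 change of -0.84 against -0.06 over all tested genes, of which 63.3% were called. Within code sets 1 to 4 there were 5, 0, 2 and 2 members called lower and 0, 2, 0 and 0 called higher. The 2 of set 2 were MYBL2 and TTG1. Over all genes 7630 of 19619, 7605 of 19542, 8403 of 19354 and 3346 of 19264 tested were called in these sets. MYB90 fell by 7.86 on the log2 scale (SE 0.92, adjusted p = 6.7e-11) and, with the floor of 3 counts, by 7.68. MYB114 fell by 4.52 (SE 0.60, adjusted p = 1.95e-09), TT8 by 3.91 (SE 0.52, adjusted p = 1.99e-09), PAP1 by 1.06 (SE 0.32, adjusted p = 0.003) and CPC by 0.62 (SE 0.24, adjusted p = 0.0204). Without code set 1 the CPC call was lost (-0.32, adjusted p = 0.215). MYB113 gave no call (-1.39 ± 1.06, adjusted p = 0.249), nor did GL3 (-0.46 ± 0.26), EGL3 (0.18 ± 0.24), TTG1 (0.02 ± 0.07) or MYBL2 (0.44 ± 0.22, adjusted p = 0.0765). On library totals TTG1 (-0.29, adjusted p = 0.00134) and GL3 (-0.77, adjusted p = 0.0058) were called lower. MYBL2 was called higher at 20 mM with code set as a term of the fit (0.44, adjusted p = 0.00737), without code set 1 (0.48, adjusted p = 0.0171), with DESeq2 (0.47, adjusted p = 0.0467) and with limma-voom (0.52, adjusted p = 0.0364).

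The nitrate response was described separately at each light level. In low light only MYB114 was called (8.69% of all tested genes), with 0 counts over the 8 plants at 20 mM and 29 counts at 2 mM, at least 10.6-fold lower with the floor of 3 counts per group (adjusted p = 0.0167). Of those 29 counts 21 came from replicate 2, and without code set 1 the call was lost (adjusted p = 0.298). In mid light 7 members fell and 2 rose (45.8% of all tested genes). TT8 had 0, 0.253 and 0.909 CPM at 20 mM and 0.0717, 15.9 and 45 CPM at 2 mM in mid light, and fell by 5.66 on the log2 scale (SE 0.89, adjusted p = 1.22e-06). MYB90 summed to 0 counts at 20 mM and 2366 at 2 mM in mid light, at least 845-fold lower with the floor of 3 counts per group. Of those 2366 counts 1263 came from 1 plant, and 1 plant at 2 mM had 0 counts, so the MYB90 groups overlapped. PAP1 fell by 1.98 (SE 0.57), MYB113 by 5.87 (SE 1.24), GL3 by 1.40 (SE 0.45) and EGL3 by 1.04 (SE 0.41). MYB114 fell by 5.77 (SE 0.95), while TTG1 rose by 0.45 ± 0.13 and MYBL2 by 1.00 ± 0.39 (adjusted p = 0.0299). MYBL2 had 65.3, 126 and 344 CPM at 20 mM and 23.0, 103 and 223 CPM at 2 mM in mid light, so its groups overlapped. The EGL3 call was lost without code set 1 (-0.84, adjusted p = 0.0918), and on library totals the rises of TTG1 (0.11, adjusted p = 0.509) and MYBL2 (0.63, adjusted p = 0.168) gave no call.

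In high light 5 members fell at 20 against 2 mM and EGL3 rose (50.8% of all tested genes). TT8 had 0.766, 3.17 and 7.06 CPM at 20 mM and 13.6, 25.7 and 110.8 CPM at 2 mM, without overlap, and fell by 2.79 on the log2 scale (SE 0.72, adjusted p = 0.00103). MYB90 fell by 8.16 (SE 1.31), MYB114 by 2.80 (SE 0.74), CPC by 1.19 (SE 0.41) and TTG1 by 0.47 (SE 0.13), and EGL3 rose by 1.41 ± 0.42 (adjusted p = 0.00378). PAP1 gave no call in high light (-0.88 ± 0.55, adjusted p = 0.173, or -1.32 with adjusted p = 0.0363 on library totals), with 15.3, 37.4 and 76.5 CPM at 20 mM and 20.1, 39.4 and 421 CPM at 2 mM. EGL3 at 2 mM in high light had 0.0599, 0.401 and 1.03 CPM, the lowest group mean of that gene.

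**Figure D3:**
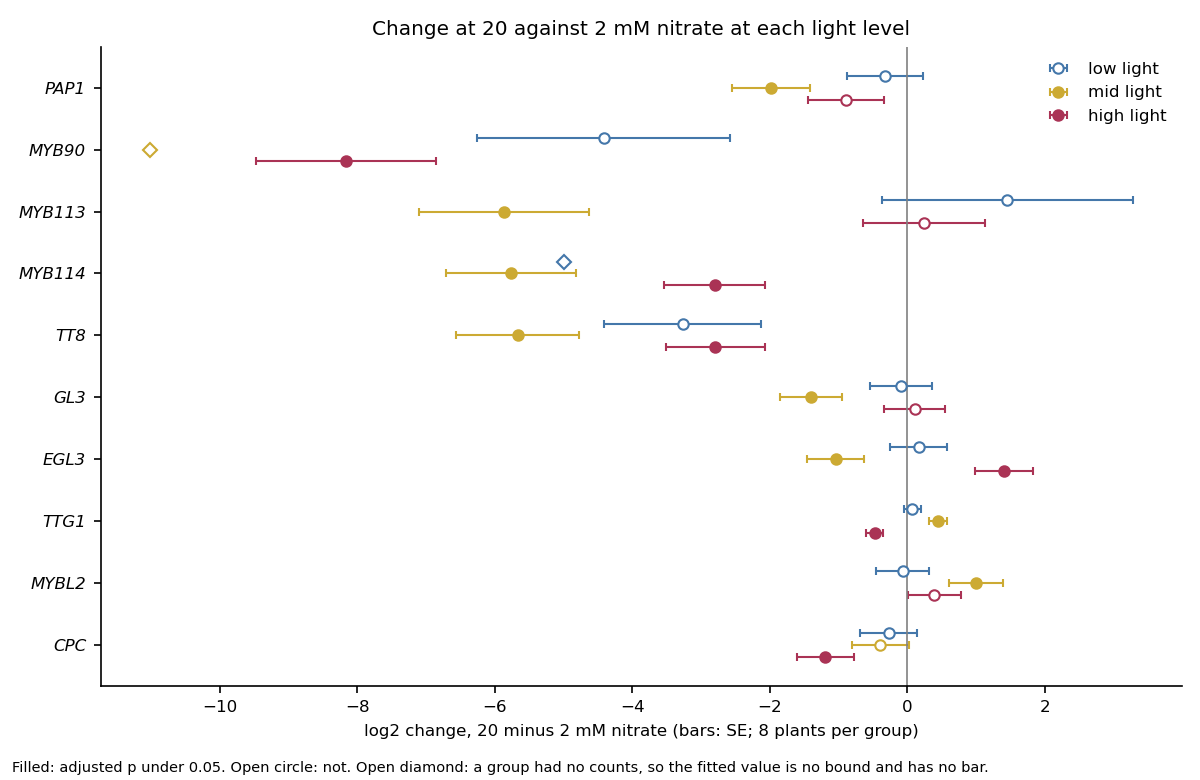
Change of each regulator at 20 against 2 mM nitrate within low, mid and high light, on the log2 scale with SE (8 plants per group). Filled circles passed an adjusted p of 0.05, open circles did not, and open diamonds mark comparisons with an empty group. In mid light 7 members lie below 0 with a call and TTG1 and MYBL2 above it, while EGL3 and TTG1 change sides between mid and high light.

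The levels were then ordered over all 12 groups. For 7 members each group mean lay within the larger SD of its neighbour in the order at all 11 steps, and for MYB114, TTG1 and CPC at 10 of 11. Median TT8 was 0.539, 0.114, 0 and 0.0400 CPM at 2, 5, 10 and 20 mM in low light and 15.9, 5.13, 1.33 and 0.253 CPM in mid light. Median MYB90 was 14.2, 0.725, 0 and 0 CPM at the same doses in mid light, and 8.44, 26.5, 4.07 and 0.0485 CPM in high light. MYBL2 had its highest group mean, 197 CPM, in low light at 2 mM and its lowest, 107 CPM, in mid light at 2 mM, and TTG1 its highest, 62.1 CPM, in high light at 2 mM and its lowest, 33.7 CPM, in high light at 20 mM.

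In high light the doses were not ordered in a single direction. The highest of the 12 group means belonged to high light at 5 mM for 7 members, PAP1, MYB90, MYB113, MYB114, TT8, GL3 and CPC. By medians it was highest for 5 of them. In high light median CPC stood at 2.14 CPM with 5 mM nitrate, against 2.24 CPM with 2 mM, and median MYB113 stood at 6.58 CPM with 10 mM, against 3.38 CPM with 5 mM. The MYB90 mean of 59.5 CPM at 5 mM was 27.8 CPM without its highest plant. Median TT8 was 25.7, 59.5, 24.8 and 3.17 CPM at 2, 5, 10 and 20 mM in high light, and median PAP1 39.4, 103, 61.9 and 37.4 CPM. Between 5 and 2 mM 3 members were called (5.6% of all tested genes). MYB113 rose by 3.00 ± 0.93 (adjusted p = 0.0362) and EGL3 by 1.42 ± 0.41 (adjusted p = 0.0258), and TTG1 fell by 0.46 on the log2 scale (SE 0.13, adjusted p = 0.0173). TT8 (1.08 ± 0.67) and PAP1 (0.79 ± 0.55) gave no call in that step, and MYB113 lost its call without high-light replicate 1 at 5 mM (2.71, adjusted p = 0.0584) and on library totals (2.93, adjusted p = 0.0532). Without code set 1 PAP1 and GL3 were also called higher at 5 mM (PAP1 by 1.31 with adjusted p = 0.0134, GL3 by 1.26 with adjusted p = 0.0172).

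Between 10 and 5 mM CPC was the single call (2.01% of all tested genes), a fall of 1.57 on the log2 scale (SE 0.41, adjusted p = 0.0251) that was lost without replicate 1 at 5 mM (-0.79, adjusted p = 0.341), without code set 1 (-0.64, adjusted p = 0.329) and without replicate 8 at 10 mM (-1.40, adjusted p = 0.117). Between 20 and 10 mM 3 members fell (6.65% of all tested genes). MYB90 fell by 6.32 (SE 1.27, adjusted p = 0.00109), TT8 by 2.37 (SE 0.71, adjusted p = 0.0306) and MYB114 by 2.23 (SE 0.73, adjusted p = 0.0483). The TT8 and MYB114 calls were lost without code set 1 (adjusted p = 0.0734 and 0.197), and with limma-voom none of the 3 was kept. MYB114 also lost its call with RLE factors (adjusted p = 0.0503), without the filter (adjusted p = 0.0586) and with DESeq2 (adjusted p = 0.0556). The groups of MYB90 overlapped, with 0, 0.0485 and 0.367 CPM at 20 mM in high light and 0, 4.07 and 38.1 CPM at 10 mM.

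Whether the nitrate response depends on light was tested with 1 F test over the 6 interaction terms. It was called for 3 members, TTG1 (adjusted p = 0.000337), MYB113 (adjusted p = 0.00497) and EGL3 (adjusted p = 0.0389), against 12.7% of all tested genes. TTG1 rose at 20 against 2 mM in mid light, fell in high light and had 0.08 ± 0.13 in low light. The MYB113 call did not hold with limma-voom (adjusted p = 0.654), and that of EGL3 was lost without code set 1 (adjusted p = 0.0801). TT8 (adjusted p = 0.148), PAP1 (adjusted p = 0.373) and MYBL2 (adjusted p = 0.45) gave no call. With code set as a term of the fit 8 members were called, TT8 (adjusted p = 0.0139) and MYBL2 (adjusted p = 0.0364) among them. The narrower difference between the 20 against 2 mM change in high and in low light was called for TTG1 (-0.55 ± 0.18, adjusted p = 0.0477), with 6.03% of all tested genes called. That call was lost without the filter on low counts (adjusted p = 0.057).

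The late anthocyanin genes, on which the complex acts, rose with light as TT8 did, and most of them fell with nitrate. All 12 late anthocyanin genes rose in high against low light, with a median log2 change of 6.20, and 11 of 12 fell at 20 against 2 mM with a median of -3.37. Of all tested genes 33.8% rose with light and 34.6% fell with nitrate. Without code set 1 both counts were the same. DFR (AT5G42800) encodes dihydroflavonol reductase, the first enzyme of the anthocyanin branch, and had 583, 922 and 2562 CPM in high light at 5 mM and 0.0835, 0.380 and 21.7 CPM in low light. The late genes with the smallest p in the light comparison were TT7 (5.40 ± 0.36), the flavonoid hydroxylase gene, the anthocyanin acyltransferase genes AT3G29590 (7.24 ± 0.49) and AT1G03495 (6.70 ± 0.46), and LDOX (7.54 ± 0.53), which makes anthocyanidins. SCPL10 was the late gene with no call for nitrate (0.11 ± 0.20). The 5 early flavonoid enzymes rose in high light by a median of 3.05, among them CHI (3.04 ± 0.21), F3H (3.05 ± 0.21) and CHS (4.03 ± 0.33), and 4 of 5 fell at 20 mM with a median of -1.61.

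Other genes known to hold the pathway down did not share a direction. Of the 9 other repressors 4 fell and 2 rose in high light (median -0.04), and at 20 against 2 mM 3 rose and 3 fell (median 0.07), where 62.5% and 63.3% of all tested genes were called. The LBD genes, nitrate-responsive repressors of anthocyanin genes including PAP1 and PAP2 (MYB90), moved opposite to the activators. LBD37 fell by 2.33 (SE 0.20), LBD38 by 2.98 (SE 0.29) and LBD39 by 3.66 (SE 0.55) in high light, and at 20 mM they rose by 1.88 ± 0.23, 3.18 ± 0.33 and 4.32 ± 0.59. LBD38 had 0, 0.0762 and 0.389 CPM in high light at 5 mM and 2.42, 7.42 and 9.98 CPM in low light. MYB3 fell by 0.87 (SE 0.11) in high light and gave no nitrate call (0.07 ± 0.13). Of the 6 other single-repeat MYB genes, relatives of CPC, TRY (0.73 ± 0.19) and ETC3 (0.68 ± 0.16) rose and TCL1 (-1.83 ± 0.34) and ETC2 (-1.17 ± 0.25) fell in high light, with a median of 0.01. At 20 against 2 mM 2 rose (TCL1 by 1.87 ± 0.40 and TRY by 0.67 ± 0.22) and ETC3 fell by 0.56 (SE 0.18), with a median of 0.15.

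Partners of the complex in trichomes and seed coat were mostly without a call. Of the 11 listed, 7 could be tested, and TTG2, a WRKY factor gene downstream of the complex, rose by 2.33 ± 0.24 while LWD1, a WD40 relative of TTG1, fell by 0.17 (SE 0.05) in high light. LWD2 (-0.11 ± 0.05) and MYC1 (-0.31 ± 0.25) gave no call, and the list median was 0.02. At 20 against 2 mM TTG2 fell by 1.15 (SE 0.27) and LWD1 rose by 0.15 ± 0.05. Of the 13 light-signalling genes 5 rose and 5 fell in high light with a median of 0.16, and 2 rose and 2 fell at 20 mM with a median of -0.08. These 10 and 4 calls of 13 stand beside the 62.5% and 63.3% called among all tested genes. HY5, a bZIP activator of light responses, rose by 1.42 ± 0.25 and BBX22 by 0.82 ± 0.09, while PIF4, a bHLH factor of shade growth, fell by 1.00 (SE 0.11) and BBX21 by 0.58 (SE 0.08). HY5 had 1.48, 4.18 and 22 CPM in high light at 5 mM and 0.950, 1.65 and 4.37 CPM in low light. RBCS1A, a marker of the photosynthetic leaf, fell by 1.03 (SE 0.17) in high light and rose by 1.41 ± 0.20 at 20 mM.

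Plants of the same group differed widely, which allowed the members to be set against DFR within groups. Each plant was expressed as its deviation from its group mean in log2 CPM, and 10 correlations were computed over the 96 plants, with p-values from 100000 permutations within groups (2-sided), adjusted over the 10 correlations. TT8 followed DFR most closely, with Pearson's r = 0.87 (p = 1e-05, the smallest that these permutations can give, adjusted 3.33e-05) and Spearman's rho = 0.82 (p = 1e-05). Without the 2 plants farthest from the median of TT8 r was 0.81, and within code sets 1 to 4 it was 0.71, 0.82, 0.92 and 0.94. The values within sets rest on 24 plants each, as deviations from the mean of the 2 plants of a group in that set. The 2 deviations of such a pair mirror each other, so each group gives 1 independent deviation per set. MYB113 had r = 0.69 and rho = 0.65, PAP1 0.59 and 0.65, MYB90 0.58 and 0.47, MYB114 0.53 and 0.46, and GL3 0.45 and 0.50, all with adjusted p of at most 8.33e-05 by permutation. Without the 2 plants farthest from the median of the gene, r was 0.60 for MYB113, 0.59 for PAP1 and 0.45 for GL3. By the same omission it was lower for MYB90 (0.42), MYB114 (0.35) and CPC (0.25). CPC had r = 0.34 (permutation p = 0.00245, adjusted 0.0035), and its adjusted p was 0.0964 for deviations from group means taken within each code set. With these deviations the adjusted permutation p of r was 0.0037 for MYB90, 0.0382 for MYB114 and 0.00608 for GL3. It was 3.33e-05 for TT8, PAP1 and MYB113.

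TTG1 (r = -0.04, permutation p = 0.725, adjusted 0.725) and EGL3 (r = -0.08, permutation p = 0.458, adjusted 0.509) showed no relation that passed. MYBL2 had r = 0.22 and rho = 0.23 (permutation p = 0.0451 and 0.0275, adjusted 0.0563 and 0.0344), a positive and not a negative value, and without code set 1 r was -0.06 (permutation p = 0.803). Within the 4 code sets, with deviations taken as for TT8, PAP1 had r = 0.85, 0.43, 0.52 and 0.64 and MYB113 0.89, 0.57, 0.40 and 0.85. MYB90 had 0.14, 0.58, 0.83 and 0.81, and MYB114 0.14, -0.01, 0.41 and 0.71, so the lowest value was in set 1 for MYB90 and in set 2 for MYB114. GL3 had 0.74, 0.56, -0.15 and 0.77.

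**Figure D4:**
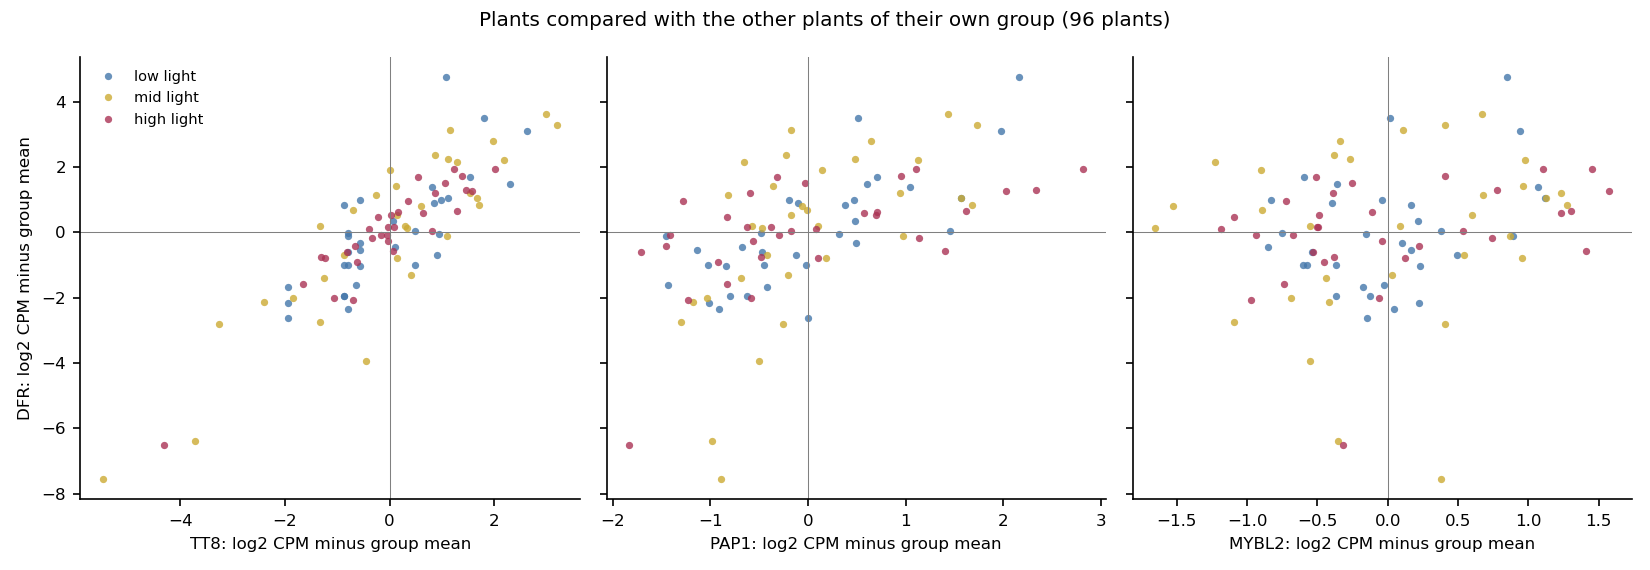
DFR against TT8, PAP1 and MYBL2 in the 96 plants, each as log2 CPM minus the mean of the plant's own group of 8, coloured by light level. The TT8 points follow a rising line (r = 0.87), the PAP1 points rise with more scatter (r = 0.59), and the MYBL2 points show little slope (r = 0.22).

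Code set was a further difference between plants of 1 group. The 7 members whose level differed between sets were PAP1, MYB90, MYB113, MYB114, TT8, GL3 and MYBL2, and EGL3, TTG1 and CPC gave no call. Such a difference was as common among all genes, with 13897 of 19498 tested genes called, so this count does not set the members apart. MYBL2 in set 1 averaged 288, 265 and 296 CPM in low, mid and high light, above the other 3 sets at every light level. Within the sets the change of MYBL2 in high against low light was -0.19 ± 0.21 (adjusted p = 0.545), -0.82 ± 0.12, -0.96 ± 0.22 and -1.03 ± 0.15 in sets 1 to 4, called lower in the last 3. PAP1 in high light averaged 264, 72.9, 58.8 and 34.9 CPM in sets 1 to 4, and its change in high against low light was 1.81 ± 0.44, 1.73 ± 0.29, 0.73 ± 0.27 and 0.20 ± 0.32, with no call in set 4 (adjusted p = 0.645). TT8 rose in every set, by 5.85 ± 0.63, 8.01 ± 0.74, 6.40 ± 0.89 and 7.10 ± 1.37. For nitrate, TT8 fell at 20 against 2 mM in sets 1, 3 and 4 by 4.01 (SE 0.71), 4.33 (SE 1.01) and 6.27 (SE 1.84), and in set 2 had -2.27 ± 1.29 (adjusted p = 0.18). MYBL2 rose with nitrate in set 2 alone (1.55 ± 0.15), against 0.47 ± 0.24, 0.18 ± 0.25 and -0.20 ± 0.17 in sets 1, 3 and 4.

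**Figure D5:**
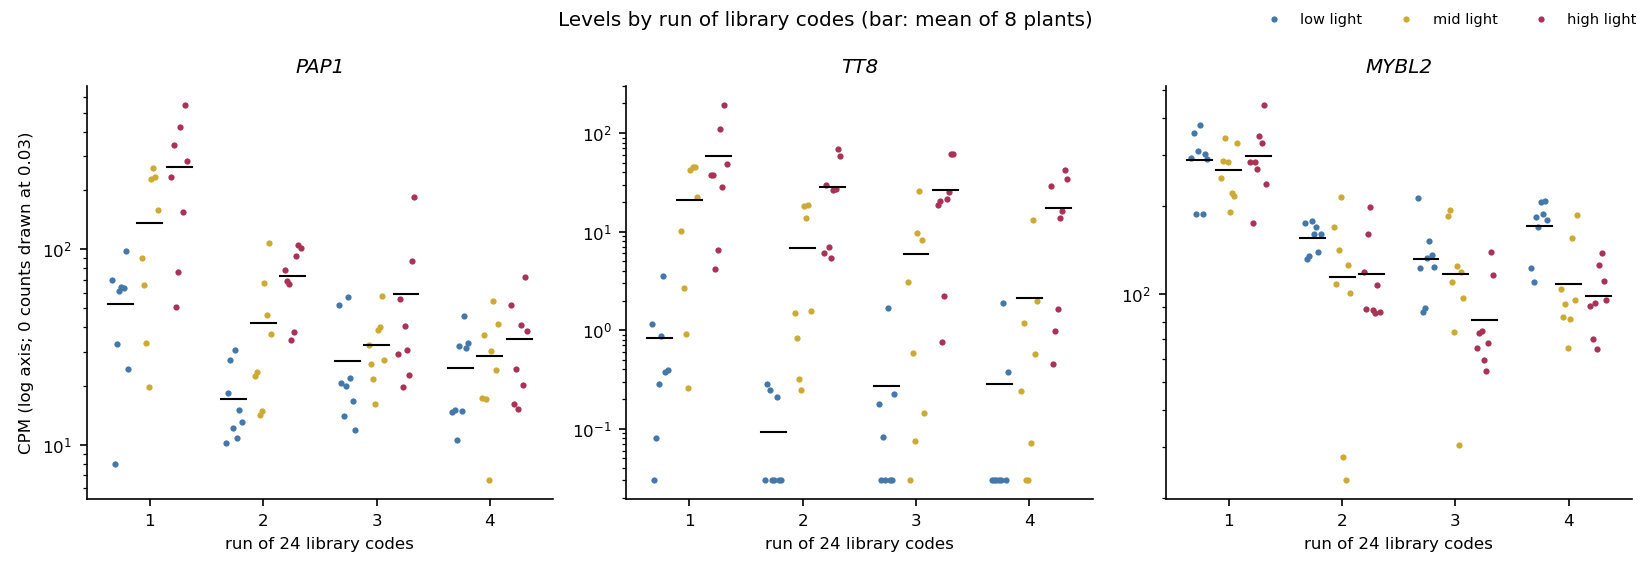
Levels of PAP1, TT8 and MYBL2 in CPM (log axis) in the 4 code sets, with low, mid and high light side by side. On the axis a code set is called a run of 24 library codes, which does not mean a sequencing run. Points are plants, bars are means of 8 plants, and plants with 0 counts are drawn at 0.03 CPM. MYBL2 is highest in code set 1 at all light levels, PAP1 in code set 4 averages 24.7, 28.5 and 34.9 CPM in low, mid and high light, and TT8 is higher in high light in all 4 code sets.

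Finally, each of 3 members was compared in its pattern over the 12 group means of log2 CPM with 17883 tested genes. For TT8 the 5 most alike were the anthocyanin glucosyltransferase gene AT4G14090 (r = 0.994), the acyltransferase genes AT1G03940 (r = 0.994) and AT3G29590 (r = 0.993), SDHAF2 (AT5G51040, r = 0.992) and LDOX (r = 0.991). For PAP1 they were NUDT24 (AT5G19470, r = 0.978), AT1G20490, AT4G35360, AT3G15780 and AT3G59490 (r = 0.965 to 0.967). For MYBL2 they were AT5G47390 (KUA1, r = 0.979), the clock gene PRR9 (AT2G46790, r = 0.974), AT3G55070, AT3G23880 and AT1G18810. Among the members, group means of TT8 and MYB114 had r = 0.979, TT8 and PAP1 0.928, and TT8 and MYBL2 -0.80. These values describe 12 means that share the same libraries and carry no test.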

How the data were processed

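Polyadenylated RNA of leaf discs was sequenced from 96 single plants in 12 groups of 8, 1 library per plant, with a stranded kit per the labels' protocols. The authors deposited a table of raw counts, with 1 row per locus and 1 column per library. Reads were aligned with STAR 2.5.3a to TAIR10 and counted with featureCounts, per the submitters' processing notes. The sources used here do not give the strand setting or the treatment of reads that match several genes, so near copies and overlapping genes are uncertain.

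CPM, RPKM (over annotated exon length in TAIR10.1) and log2 changes were computed here from the deposited counts. CPM and RPKM use the library total, and the fit uses TMM factors (0.766 to 1.35). Of 28025 genes with a count, 19498 passed filterByExpr by group. edgeR 4.0.16 in R 4.3.3 fitted 12 group means by the robust quasi-likelihood method with 84 residual degrees of freedom. Averaged contrasts weight groups equally. The SE is the size of a change divided by the square root of F, and a call is an adjusted p under 0.05. Depth sets the precision of low values: in a group of 8 libraries a floor of 3 counts is 0.0262 to 0.0328 CPM, for counting error only. The labels do not say more of the replicates than that they are individual plants. In 336 pairs of libraries within groups none were copies (lowest chi-square per degree of freedom 6.72).

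On simulated counts the fit was tested for recovery of known changes. DESeq2 1.42.0 and limma-voom (limma 3.58.1), RLE factors, no filter, blocks for replicate number or code set, omission of code set 1, of each replicate number or of 3 single libraries (chosen after seeing the data), and the summed counts of MYB90, MYB113 and MYB114 were the alternatives. Library totals in place of TMM were also tried after seeing the data. In 94 of 96 libraries replicate numbers 1 and 2, 3 and 4, 5 and 6, and 7 and 8 fall in code sets 1 to 4, in that order. The labels tie the numbers to no shared litter, batch or day, and the fit has no block. Differences between code sets therefore stay in its residual spread, and a missing call in this fit is not evidence of no change. Calls that appear with code set as a term are given beside the main ones in the Results. The members, gene lists and tests were chosen with earlier results of these data known. The genes named are all members, from each list up to 4 with the smallest p in high against low light, DFR, LDOX, CHS, the LBD genes, HY5 and RBCS1A, and the 5 genes of at least 1 CPM most like PAP1, TT8 and MYBL2. SCPL10 was named after its values were seen. Gene symbols came from RefSeq TAIR10.1, to which 32548 of 32833 loci matched.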

Additional observations from a re-analysis of the deposited data

Results flagged for a closer look

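In 14 of 120 sets of 8 plants, 1 plant stood apart from the other 7 by Dixon's 95% criterion. Chance meets it in about 1 in 20 sets of normally distributed values, and that rate does not hold for sets with many 0 counts. Where the other 7 plants had 0, any count met the criterion, and sets without any count could not meet it. In high light TT8 had 194 CPM in replicate 1 at 5 mM (others 34.2 to 69.5) and 110.8 CPM in replicate 1 at 2 mM (others 13.6 to 28.2). CPC had 15.6 CPM in replicate 1 at 5 mM in high light, with the others at 1.63 to 3.25 CPM. At the other end, TT8 had 0.458 CPM in replicate 8 at 10 mM in high light, with the others at 6.08 to 37.9 CPM.

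In mid light at 2 mM replicate 7 was lowest for TT8, at 0.0717 CPM (others 9.62 to 45), and for MYB113, also at 0.0717 CPM (others 2.20 to 11.7). Each of these values is 1 count. MYB90 in mid light at 10 mM had 0.843 CPM in replicate 5, with the others at most at 0.0708 CPM.

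In low light single plants stood above the others of their group in activator transcript. PAP1 had 97.8 CPM in replicate 1 at 5 mM (others 11.8 to 33.2), and MYB113 had 5.53 CPM in the same plant and 1.57 CPM in replicate 1 at 10 mM, where the others had 0. Replicate 2 at 2 mM had 6.00 CPM of MYB90 (others at most 0.402) and 2.13 CPM of MYB114 (others at most 0.331), and was lowest for EGL3 at 0.203 CPM (others 0.579 to 1.16). MYB90 in replicate 2 at 5 mM had 0.130 CPM, which is 2 counts, against 0 in the others. The plants of low light named here all belong to code set 1, and the part of code set in these values was not tested.

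The change of TTG1 at 20 against 2 mM differed between high and low light by -0.55 on the log2 scale (edgeR, adjusted p = 0.0477).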

How the results depend on the processing

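Of 902 values recomputed under the alternatives, 275 of the counts of called members stayed within 1.5 times and 48 moved further, while 532 of the log2 changes kept direction and side of the threshold, 13 passed it newly, 15 no longer passed and 19 changed sign. The cause of these shifts was not tested. The interaction, called for 3 members, was called for 8 with a replicate block, 8 with a code set block, 6 without replicate 7 at 2 mM in mid light, 5 without replicate 8 at 10 mM in high light, 5 with DESeq2, 5 on library totals, and 2 to 5 when each replicate number was left out. The nitrate difference between high and low light, called for 1, was called for 0 without the filter and 0 to 1 with a replicate number left out. In low light the nitrate count of 1 became 2 with a replicate block, 2 with a code set block, 2 without either single library just named, 3 with DESeq2, 2 on library totals, 0 without code set 1, 0 with the copies summed, 0 with limma-voom, and 0 to 2 with a replicate number left out. The 3 calls in high against low light at 20 mM became 0 with limma-voom. In high light the 5 against 2 mM count of 3 became 5 without code set 1 and 0 to 4 with a replicate number left out. The 10 against 5 mM count of 1 became 2 with either block, 0 without code set 1, 0 without replicate 1 at 5 mM or replicate 8 at 10 mM, and 0 to 1 with a replicate number left out. The 20 against 10 mM count of 3 became 1 without code set 1, 0 with limma-voom and 1 to 3 with a replicate number left out.

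The changes of sign were all in values without a call under TMM. On library totals they were EGL3 (0.18) and TTG1 (0.12) in high against low light, EGL3 (-0.11) and TTG1 (-0.29) at 20 against 2 mM, and GL3 (-0.074) in the nitrate difference. With a replicate number left out, EGL3 ran from -0.13 to 0.082 in high against low light and from -0.0060 to 0.32 at 20 against 2 mM, and TTG1 from -0.034 to 0.072 at 20 against 2 mM. For the nitrate difference between high and low light, PAP1 (-0.56) ran from -0.79 to 0.073 with a replicate number left out, and was 0.0095 with a code set block, 0.63 without code set 1 and 0.12 with limma-voom. MYB114 (2.19) was -1.04 with the copies summed and -1.94 with limma-voom, TT8 (0.47) was -0.76 with limma-voom, and GL3 (0.20) ran from -0.032 to 0.35 with a replicate number left out. With the counts of MYB90, MYB113 and MYB114 summed the change at 20 against 2 mM was -4.83 (adjusted p = 1.22e-08).

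Plants with the same replicate number share, in 94 of 96 libraries, a code set with the neighbouring number. In 32 pairs of deviations the correlation ran from -0.35 to 0.56, was over 0.1 in 22, and was best with the own number in 8. Low counts limit MYB90, MYB113, MYB114 and TT8 in low light, where many plants had 0.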
